A study of Mus musculus with 8 samples.

Results

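Brown and inguinal white fat of WT mice were compared by RNA sequencing of 2 brown adipose tissue (BAT) libraries and 2 inguinal WAT (iWAT) libraries. They are 4 of 8 libraries in a study of the linker histone H1.2 in adipocytes. Genes were retained where the mean over these 4 libraries reached 0.5 FPKM (fragments mapped per gene, scaled to gene length and to the depth of the library), which gave 14094 of the 44422 genes listed. The other 30328 genes were not tested, and 21113 of them were listed at 0 in all 4 libraries. At that minimum the small nucleolar RNA Gm23908 (0.513 and 0 FPKM in BAT, 1.13 and 0.352 in iWAT) lay just inside, and Tmsb15b1 (0.463 and 0.438 in BAT, 0.569 and 0.530 in iWAT) just outside. The WT mice were C57BL/6 males aged 10 weeks that carried the floxed H1.2 alleles (H1.2 flox/flox) without Cre, were fed normal chow and were housed at 22 °C. The remaining 4 libraries came from the same tissues of H1.2AKO mice, which carry the same floxed alleles with Cre driven by the adiponectin promoter. Adipocytes of these mice lose H1.2, and the other cells of the pad keep it. Each library was a pool of mice, 2 per pool by the methods and 3 by the deposited notes. The sources do not state whether the BAT and iWAT pools were taken from the same mice. The p-values rest on the spread between pools within the groups of all 8 libraries, and not on the spread between single mice.

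Brown adipocytes burn fatty acids to make heat. They hold many mitochondria, and uncoupling protein Ucp1 lets protons re-enter the mitochondrial matrix without making ATP, under the control of noradrenaline from sympathetic nerves. White adipocytes store triglyceride and secrete hormones such as leptin, and the inguinal depot can form Ucp1-positive beige adipocytes in the cold. The inguinal pad also surrounds a lymph node, and the interscapular brown pad lies against muscle.

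The libraries held 16118634 to 16327012 reads over the listed genes. Replicates correlated across genes with r = 0.967 in iWAT and 0.983 in BAT on the log2 scale, and 541 and 371 tested genes differed by more than 1 log2 unit between the pools of a tissue. WT iWAT replicate 1 stood apart in skeletal muscle genes, whose FPKM summed to 246 there and to 5310 in iWAT replicate 2, 4299 in BAT replicate 1 and 4916 in BAT replicate 2. Mitochondrially encoded genes took 13.5% and 11.1% of all FPKM in iWAT and 33.1% and 31.4% in BAT. The denominators implied by the deposited FPKM values were 1.23 and 1.33 times the reads over the listed genes in iWAT and 0.914 and 0.955 times in BAT. When those reads were used as the denominator, every BAT value was lowered relative to iWAT and the median difference of all genes became -0.41 on the log2 scale. That setting is called the listed-read scale here, and a result that it turned is given with its value.

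Tissue labels were checked on marker genes. Ucp1 was at 0.546 and 2.01 FPKM in iWAT and 2801 and 2490 in BAT, and Cidea, Elovl3 and Cox8b were also higher in both BAT libraries than in either iWAT library. The adipocyte genes Adipoq, Plin1 and Fabp4 were abundant in all 4 libraries, at 1270 and 1201 FPKM in iWAT and 912 and 944 in BAT for Adipoq. White fat markers Lep and Nnat were higher in both iWAT libraries. The targeted gene Hist1h1c (the gene of H1.2, chr13:23738808-23740367, plus strand, GRCm38) was at 23.7 and 24.2 FPKM in iWAT and 36.8 and 43.3 in BAT. The H1.2AKO libraries held it at 2.26 and 1.73 FPKM in iWAT and 0.177 and 1.97 in BAT, below every WT value, so each library matched its genotype label.

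H1.2 packages DNA between nucleosomes, and its mRNA in WT mice was 1.67-fold higher in BAT by the group means (log2 difference 0.73 ± 0.53 SE, adjusted p = 0.286). The BAT and iWAT values did not overlap, but the difference did not pass the threshold. Of the 14094 genes tested, 5397 lay without overlap toward BAT and 5738 toward iWAT. The spread in this test is shared with the H1.2AKO libraries, whose low residual values in BAT (0.177 and 1.97 FPKM) lay far apart on the log2 scale. In a fit of the 4 WT libraries alone the adjusted p was 0.00879, and in limma-voom on reads it was 0.0143. In a fit with a term for the muscle level it was 0.853 with a difference of -0.13. That term is fitted over the WT and H1.2AKO libraries together. Mean log2 muscle levels were 1.48 and 4.45 in WT iWAT, where Hist1h1c was at 23.7 and 24.2 FPKM. In H1.2AKO BAT they were 1.44 and 4.575, where Hist1h1c was at 0.177 and 1.97 FPKM. Of the other linker histones, H1f0 was higher in BAT (log2 difference 0.53 ± 0.18 SE, adjusted p = 0.0438), although not without some libraries (adjusted p = 0.14 without WT iWAT replicate 1, 0.105 without WT iWAT replicate 2 and 0.206 without WT BAT replicate 2). The H1f0 call was also lost without a filter on low values, after median-ratio scaling and after quantile normalization. The same held without mitochondrially encoded genes, on the listed-read scale and with the term for the muscle level. H1fx was at 7.14 and 3.17 FPKM in iWAT and 0.668 and 0.896 in BAT and was higher in iWAT (log2 difference -2.05 ± 0.34 SE, adjusted p = 0.0026). Hist1h1e did not pass the test (log2 difference -0.20). Its sign changed after quantile normalization (0.09), without WT iWAT replicate 2 (0.13) and without WT BAT replicate 1 (0.35). The remaining 6 listed linker histone genes were below the minimum.

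Across the genes tested, 3571 (25.3%) were higher in BAT and 3965 (28.1%) were higher in iWAT at an adjusted p under 0.05. These shares are the background for the gene groups that follow. Every called gene (3571 and 3965) lacked overlap between the tissues, so lack of overlap adds nothing to a call. Differences of at least 1 log2 unit were found in 1306 of the genes higher in BAT and 2102 of those higher in iWAT, and differences of at least 3 in 93 and 215. The median difference of all genes was -0.02 on the log2 scale and the median size of a difference was 0.495. BAT genes made up 47.4% of the calls on the deposited scale. They made up 53.8% after quantile normalization (4161 and 3574 genes), 30.7% when mitochondrially encoded genes were left out and the rest rescaled (2381 and 5374) and 19.9% on the listed-read scale (1711 and 6873). Of the 7536 genes called, 5676 were called in the same direction on the listed-read scale and 11 in the opposite direction. An exact permutation test of 2 against 2 libraries cannot give a p below 0.333, so single genes were tested only in the fit across genes. In bulk tissue fewer cells of a type and less RNA per cell cannot be told apart.

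**Figure D1:**
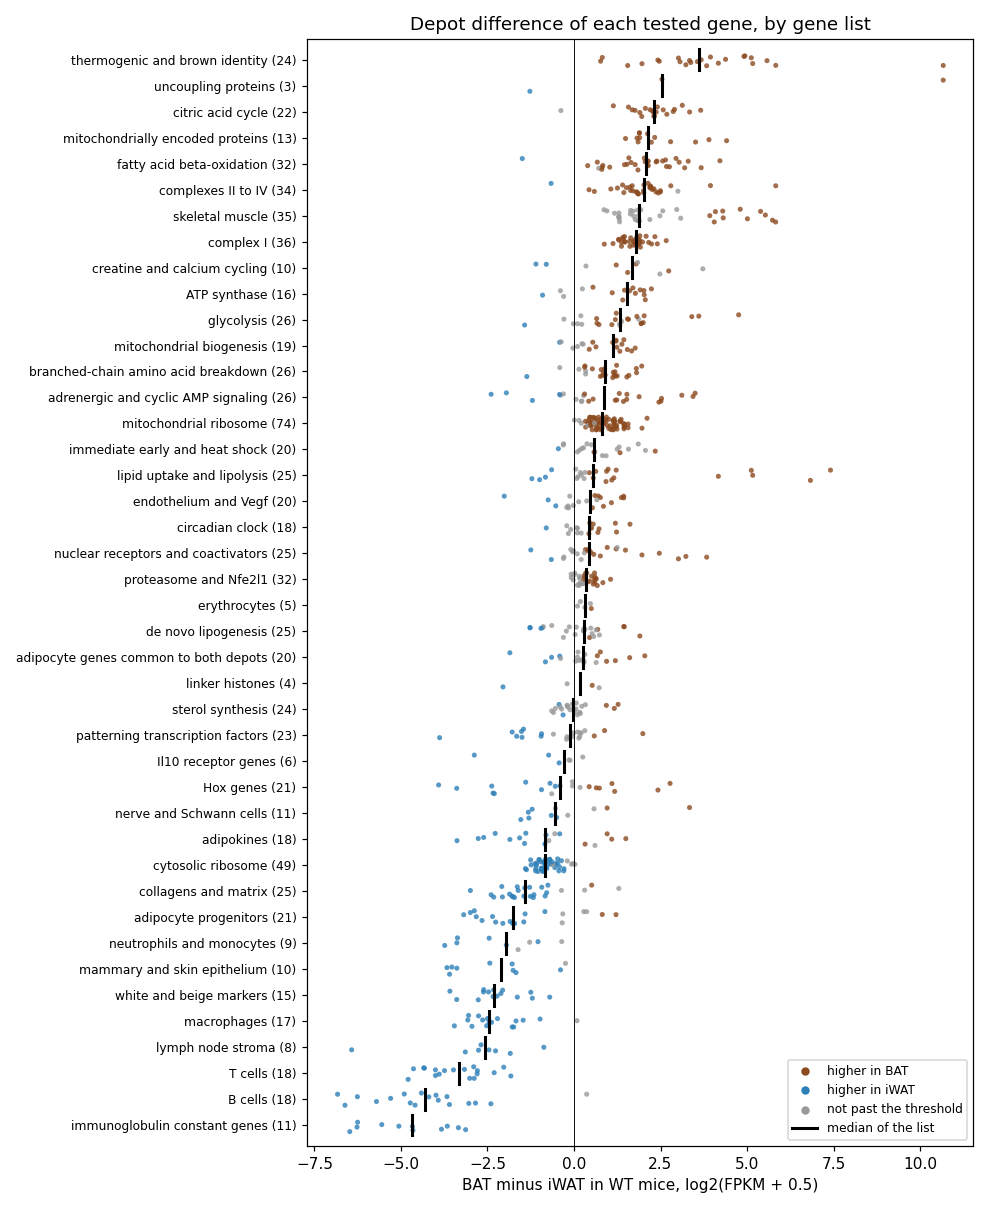
Each point is the BAT minus iWAT difference of a tested gene in WT mice on the log2(FPKM + 0.5) scale, grouped by gene list. All 24 thermogenic and all 36 complex I genes lie to the right of 0, and all 18 T cell and all 11 immunoglobulin genes lie to the left. Some lists hold genes on both sides, with 13 to the right and 3 to the left for ATP synthase, and 3 and 22 for collagens and matrix.

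The thermogenic and brown identity genes had the largest median of the 42 gene lists toward BAT. All 24 tested genes of this list were higher in BAT, with a median log2 difference of 3.62 (all genes tested, -0.02, with 25.3% higher in BAT). Without a filter on low values, 24 of 26 were higher in BAT, with a median of 3.47. Ucp1 was 2071-fold higher in BAT by the group means, from 67958 and 63827 reads in BAT and 18 and 71 reads in iWAT (log2 difference 10.67 ± 0.38 SE, adjusted p = 1.3e-05). The iWAT libraries differed in Ucp1 from each other by more than the BAT libraries did on the log2 scale, and no value was shared between the tissues. The smallest p-values of the list were those of Otop1, Gyk, Pank1 and Ppara. The proton channel gene Otop1 was at 1.84 and 1.45 FPKM in iWAT and 63.1 and 64.4 in BAT (log2 difference 4.91 ± 0.11 SE, adjusted p = 4.77e-06). The glycerol kinase gene Gyk was at 0.935 and 0.678 FPKM in iWAT and 44.4 and 45.3 in BAT (log2 difference 5.12 ± 0.16 SE, adjusted p = 1.08e-05). The coenzyme A synthesis gene Pank1 was at 3.29 and 2.47 FPKM in iWAT and 97.6 and 107 in BAT, and the fatty acid receptor Ppara at 1.82 and 1.48 FPKM in iWAT and 32.6 and 27.7 in BAT. In these 4 genes both BAT values lay far above both iWAT values.

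Cidea, which acts at the lipid droplet surface, was at 65.2 and 37.0 FPKM in iWAT and 1938 and 1631 in BAT (log2 difference 5.16 ± 0.25 SE, adjusted p = 2.62e-05). Dio2, which makes active thyroid hormone inside the cell, was at 0.163 and 0.136 FPKM in iWAT and 32.3 and 28.8 in BAT (log2 difference 5.58 ± 0.21 SE, adjusted p = 1.54e-05). Elovl3, which lengthens fatty acids, was at 1.90 and 0.747 FPKM in iWAT and 17.3 and 17.7 in BAT (log2 difference 3.38 ± 0.34 SE, adjusted p = 0.000322). For all 3 genes the replicates of a tissue lay far closer to each other than to the other tissue. The coactivator Ppargc1a was higher in BAT by 3.23 on the log2 scale (9.78 and 11.6 FPKM in BAT against 0.894 and 0.511 FPKM in iWAT). Differences were smaller for the transcription factors of brown identity named here. Prdm16 was at 1.33 and 0.958 FPKM in iWAT and 4.14 and 4.44 in BAT (log2 difference 1.55 ± 0.16 SE, adjusted p = 0.000312). Ebf2 was at 4.54 and 4.64 FPKM in iWAT and 9.80 and 7.31 in BAT (log2 difference 0.82 ± 0.15 SE, adjusted p = 0.00422). The smallest of the 24 differences was 0.77. The same list had a median of 3.66 in H1.2AKO mice.

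The 3 uncoupling protein genes did not move together. Ucp3 was 6.10-fold higher in BAT (8.61 and 7.30 FPKM in iWAT and 47.5 and 49.7 in BAT, log2 difference 2.54 ± 0.10 SE, adjusted p = 1.59e-05). Ucp2, which is common in immune cells, was 2.45-fold higher in iWAT (30.1 and 34.8 FPKM in iWAT and 11.2 and 15.3 in BAT, log2 difference -1.27 ± 0.15 SE, adjusted p = 0.00064). BAT and iWAT values overlapped in none of the 3 genes, as in every called gene.

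**Figure D2:**
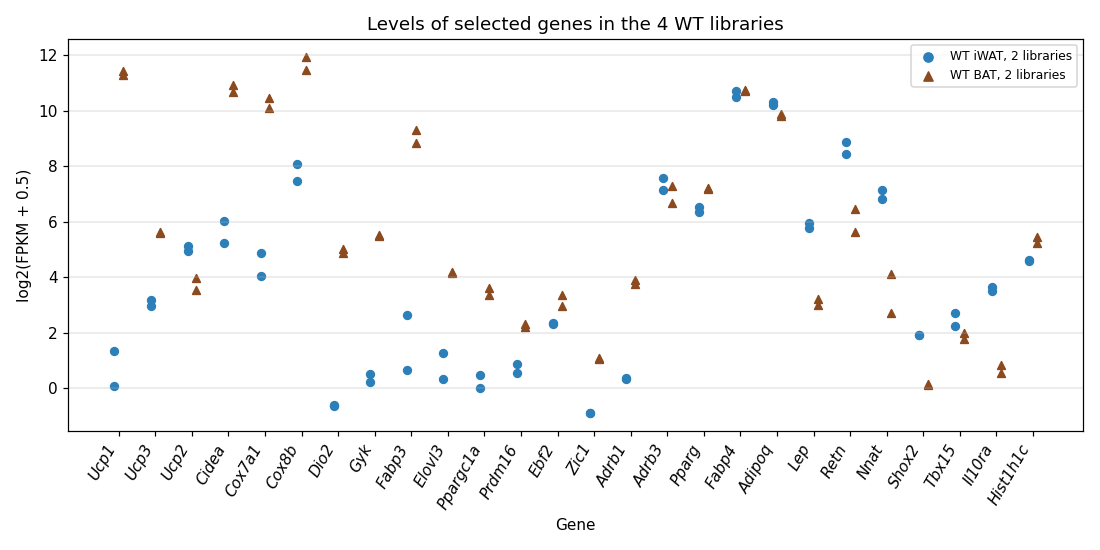
Points are log2(FPKM + 0.5) values of selected genes in the 2 WT iWAT and 2 WT BAT libraries. Ucp1, Cidea, Dio2 and Gyk are higher in both BAT libraries. Lep, Nnat, Shox2 and Il10ra are higher in both iWAT libraries, and the points of Adrb3 and Fabp4 lie close together.

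Creatine and calcium cycles spend ATP without uncoupling protein. Of 10 tested creatine and calcium cycling genes 4 were higher in BAT and 2 in iWAT, with a median of 1.67. The calcium pump gene Atp2a2 was at 32.5 and 29.3 FPKM in iWAT and 104 and 113 in BAT (log2 difference 1.79 ± 0.09 SE, adjusted p = 2.84e-05). The creatine transporter gene Slc6a8 was higher in BAT by 1.22 and the phosphatase gene Alpl by 1.55 on the log2 scale. Sarcolipin, Sln, which uncouples the calcium pump in muscle, was at 0 and 0.812 FPKM in iWAT and 3.68 and 6.47 in BAT (log2 difference 2.74 ± 0.67 SE, adjusted p = 0.0128). It lost its call without 1 library of either tissue (adjusted p = 0.0659 without WT iWAT replicate 1 and 0.0687 without WT BAT replicate 2). Gatm and Gamt, the 2 enzymes of creatine synthesis, were higher in iWAT (log2 differences -1.10 and -0.80). Gatm lost its call without some libraries (adjusted p = 0.0679 without WT iWAT replicate 2 and 0.0635 without WT BAT replicate 2). So did Gamt (adjusted p = 0.112 without WT iWAT replicate 1, 0.15 without WT iWAT replicate 2 and 0.174 without WT BAT replicate 1). Creatine kinase B, Ckb, was at 33.0 and 26.2 FPKM in iWAT and 42.8 and 32.9 in BAT and did not pass the test (log2 difference 0.35 ± 0.16 SE, adjusted p = 0.121). The difference of Ckb was -0.11 on the listed-read scale and passed without WT BAT replicate 2 (adjusted p = 0.0493). Ckmt2, the mitochondrial creatine kinase of muscle and brown fat, was named with its values known. It was at 0.571 and 12.8 FPKM in iWAT and 48.2 and 50.7 in BAT and did not pass (log2 difference 3.72 ± 1.44 SE, adjusted p = 0.0666). The iWAT values of Ckmt2 had the order of the muscle sums of those libraries. The list median was 0.788 without WT iWAT replicate 1, 0.499 with the muscle level as a covariate, and 7 of its genes were higher in BAT without WT iWAT replicate 2.

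Adrenergic signaling carries the cold stimulus from nerve endings through cyclic AMP to the adipocyte. Of 26 tested genes 16 were higher in BAT and 4 in iWAT, with a median of 0.87. The beta-1 receptor gene Adrb1 was at 0.781 and 0.747 FPKM in iWAT and 14.5 and 13.1 in BAT (log2 difference 3.50 ± 0.14 SE, adjusted p = 1.65e-05). The alpha-1A receptor gene Adra1a was at 0.662 and 0.36 FPKM in iWAT and 11.3 and 9.46 in BAT (log2 difference 3.44 ± 0.22 SE, adjusted p = 5.87e-05). Both receptors were higher in each BAT library than in any iWAT library. The beta-3 receptor gene Adrb3, which is specific to adipocytes, was at 142 and 191 FPKM in iWAT and 102 and 154 in BAT. Its values overlapped between the tissues and the difference did not pass the test (log2 difference -0.39 ± 0.31 SE, adjusted p = 0.329). Downstream, adenylyl cyclase 3 (Adcy3) was at 3.69 and 3.24 FPKM in iWAT and 34.4 and 33.3 in BAT (log2 difference 3.12). The cyclic AMP phosphodiesterase gene Pde4a was at 1.79 and 1.79 FPKM in iWAT and 12.7 and 12.4 in BAT (log2 difference 2.51). Genes of the list that were higher in iWAT were Adcy7 (9.92 and 12.4 FPKM in iWAT and 1.37 and 2.10 in BAT), Adcy5, Adra1b and Creb1 (log2 differences -1.96, -1.20 and -0.42). Without WT iWAT replicate 2 the adjusted p was 0.0637 for Adcy5 and 0.0862 for Creb1, and Creb1 also lost its call without WT BAT replicate 1 (0.0639). Adcy7 is known from immune cells, whose markers were also higher in iWAT, and the part of those cells in it was not tested.

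Among 25 nuclear receptors and coactivators 14 were higher in BAT and 2 in iWAT (median 0.43). The calls were led by Ppara, Ppargc1b (log2 difference 3.02), Ppargc1a and Esrra. The estrogen-related receptor gene Esrra was at 32.6 and 26.8 FPKM in iWAT and 123 and 110.4 in BAT (log2 difference 1.96 ± 0.11 SE, adjusted p = 4.25e-05). Estrogen-related receptors act with Ppargc1a and Ppargc1b on genes of oxidative metabolism. The corepressor Nrip1 was higher in iWAT by 1.25 on the log2 scale, and the partner receptor Rxra by 0.66. On the listed-read scale 9 genes of this list were higher in BAT and 8 in iWAT and its median was -0.02.

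Respiratory chain genes were higher in BAT almost without exception. In 6 lists of nuclear genes for mitochondrial proteins (complex I, complexes II to IV, ATP synthase, citric acid cycle, fatty acid beta-oxidation and mitochondrial ribosome) 196 of 210 tested genes were higher in BAT and 3 in iWAT. Their median was 1.46, and 148 were higher by at least 1 log2 unit. All 36 tested complex I genes were higher in BAT, by 0.87 to 2.67 (median 1.78), and all 36 were also higher in BAT on the listed-read scale (median 1.33). Ndufv1, a subunit of the NADH-binding module, was at 71.5 and 59.5 FPKM in iWAT and 443 and 392 in BAT (log2 difference 2.67 ± 0.11 SE, adjusted p = 1.82e-05). Of 34 genes of complexes II to IV 32 were higher in BAT (median 2.01). The complex III core gene Uqcrc1 was at 60.2 and 49.5 FPKM in iWAT and 409.9 and 357 in BAT, and cytochrome c (Cycs) differed by 2.43 on the log2 scale. The 1 gene of this list that was higher in iWAT was Cox4i2, the subunit 4 isoform of lung, at 3.67 and 3.95 FPKM in iWAT and 1.89 and 2.60 in BAT (log2 difference -0.66 ± 0.19 SE, adjusted p = 0.0252). Its call was lost without some libraries (adjusted p = 0.0703 without WT iWAT replicate 1, 0.103 without WT iWAT replicate 2 and 0.13 without WT BAT replicate 1). In H1.2AKO mice the difference of Cox4i2 was 0.40.

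Subunit isoforms of cytochrome oxidase differed in how far apart the depots were, as seen in genes picked after their values were known. Cox7a1, the isoform of heart, muscle and brown fat, was at 16.0 and 29.1 FPKM in iWAT and 1430 and 1109 in BAT (log2 difference 5.83). The common isoform Cox7a2 was at 199 and 154 FPKM in iWAT and 595 and 497 in BAT (log2 difference 1.64). Cox8b was at 268 and 176 FPKM in iWAT and 3970 and 2834 in BAT (log2 difference 3.94), and Cox8a at 1018 and 778 FPKM in iWAT and 2625 and 2221 in BAT (log2 difference 1.44). In both pairs the tissue-restricted isoform differed more between the depots. Cox6a2, another muscle isoform, was at 2.35 and 44.5 FPKM in iWAT and 84.3 and 96.7 in BAT, and its difference did not pass the test (log2 difference 3.00 ± 1.62 SE, adjusted p = 0.162).

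**Figure D3:**
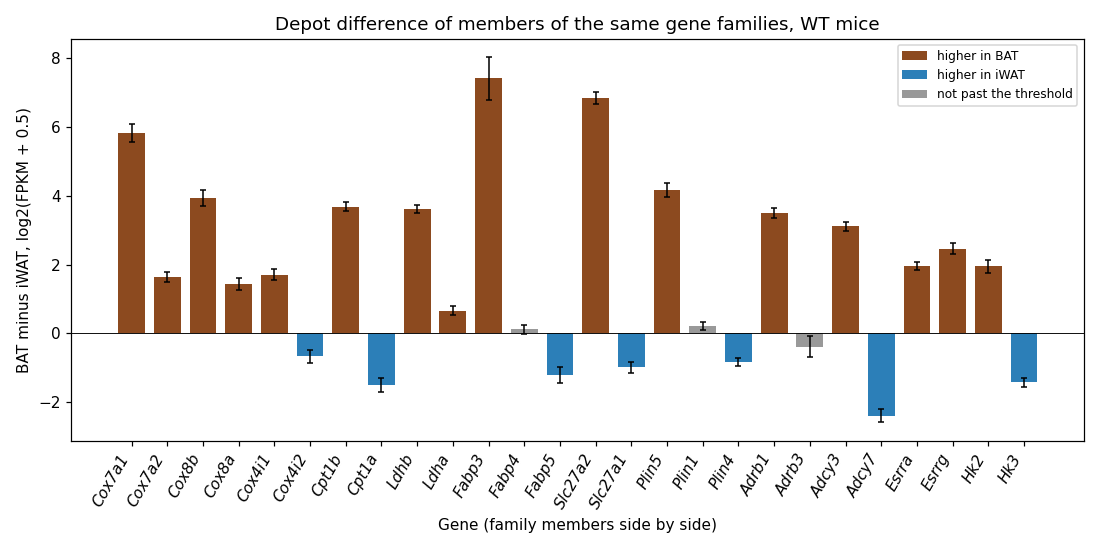
Bars are the BAT minus iWAT difference of family members placed side by side, on the log2(FPKM + 0.5) scale, with error bars of 1 SE from the fit. Fabp3, Slc27a2, Plin5 and Cpt1b lie above 0 and their relatives Fabp5, Slc27a1, Plin4 and Cpt1a below it, and gray bars (Fabp4, Plin1 and Adrb3) did not pass the threshold.

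Of 16 ATP synthase genes 12 were higher in BAT (median 1.53), and 1 was higher in iWAT. Atp5o was at 82.8 and 72.2 FPKM in iWAT and 308 and 278 in BAT (log2 difference 1.91 ± 0.10 SE, adjusted p = 3.41e-05), and Atp5b, the catalytic beta subunit, was higher in BAT by 2.24 on the log2 scale. Atpif1, the inhibitor of the ATP synthase, was the member higher in iWAT, at 10.0 and 10.6 FPKM in iWAT and 5.17 and 5.34 in BAT (log2 difference -0.91 ± 0.12 SE, adjusted p = 0.00107). Chosen after their values were seen, the subunit genes Atp5j, Atp5g3 and Atp5g1 had log2 differences of 0.24, -0.30 and -0.39 that did not pass the test. The 13 proteins encoded in mitochondrial DNA were all higher in BAT (median 2.13), and took 12.5% and 10.3% of all FPKM in iWAT and 29.5% and 28.4% in BAT. Among them mt-Nd2 was at 4109 and 3149 FPKM in iWAT and 17930 and 16010 in BAT (log2 difference 2.24 ± 0.20 SE, adjusted p = 0.000196). The most abundant gene of both tissues, mt-Co1, was at 15480 and 11690 FPKM in iWAT and 54630 and 46050 in BAT (log2 difference 1.90 ± 0.27 SE, adjusted p = 0.00138). Quantile normalization gives the most abundant gene of every library the same value, so the difference of mt-Co1 was 0 there. Levels of mt-Atp6 (50.4 and 27.8 FPKM in iWAT and 783 and 831 in BAT) and some other members are uncertain, because near-identical nuclear copies can divide the reads. Mitochondrial ribosome genes differed less, with 69 of 74 higher in BAT and a median of 0.81, and on the listed-read scale 45 were higher in BAT and 2 in iWAT.

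Promoters were read for a pair of respiratory chain genes whose windows hold the extended half-site recognized by estrogen-related receptors, TNAAGGTCA on either strand, and for Ucp1, the gene with the largest difference. Windows run from 250 bases before the start of the gene to 50 bases after it in RefSeq (GRCm38.p6), 5′ to 3′ on the strand of the gene, and capitals mark the motif. The Ucp1 window (chr8:83290098-83290397, plus strand) has no match. The Sdhd window (chr9:50603800-50604099, minus strand) has a match in reverse orientation that begins 37 bases after the start. The Ndufb4 window (chr16:37654319-37654618, minus strand) has a match that begins 57 bases before it.
Ucp1: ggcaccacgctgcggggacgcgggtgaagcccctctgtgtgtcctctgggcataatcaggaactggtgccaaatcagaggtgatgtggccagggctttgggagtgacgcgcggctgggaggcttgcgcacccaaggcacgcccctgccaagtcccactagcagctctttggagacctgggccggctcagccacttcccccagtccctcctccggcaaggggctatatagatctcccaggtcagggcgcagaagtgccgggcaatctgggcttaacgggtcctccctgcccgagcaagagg
Sdhd: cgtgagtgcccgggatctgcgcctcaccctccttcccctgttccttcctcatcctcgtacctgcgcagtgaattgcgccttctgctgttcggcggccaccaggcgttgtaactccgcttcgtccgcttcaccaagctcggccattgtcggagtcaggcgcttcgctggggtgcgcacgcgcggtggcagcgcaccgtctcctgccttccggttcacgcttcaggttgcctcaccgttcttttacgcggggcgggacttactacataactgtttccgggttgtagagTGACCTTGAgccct
Ndufb4: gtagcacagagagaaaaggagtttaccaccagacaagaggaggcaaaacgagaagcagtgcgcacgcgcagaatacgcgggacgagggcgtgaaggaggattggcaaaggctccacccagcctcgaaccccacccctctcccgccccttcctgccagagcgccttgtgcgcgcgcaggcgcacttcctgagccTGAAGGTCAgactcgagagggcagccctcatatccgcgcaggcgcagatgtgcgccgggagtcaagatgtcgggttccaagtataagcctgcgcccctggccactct
Sdhd encodes the membrane anchor of complex II and was at 133 and 116 FPKM in iWAT and 648 and 548 in BAT (log2 difference 2.26 ± 0.12 SE, adjusted p = 3.66e-05). Ndufb4 is a complex I subunit gene, shown because its window holds the motif, and was at 65.2 and 58.6 FPKM in iWAT and 229 and 181 in BAT (log2 difference 1.71 ± 0.12 SE, adjusted p = 8.82e-05). A promoter was matched for 9375 of the 14094 genes, which is fewer than 80%, so no comparison of called genes was drawn from it. The motif was in the window of 21 of 2539 matched genes higher in BAT (0.827%), 25 of 2636 higher in iWAT (0.948%) and 83 of all 9375 (0.885%). By list it was in 1 of 32 matched complex I genes, 1 of 25 of complexes II to IV and 1 of 14 of ATP synthase. The ATP synthase gene with the motif, Atp5g3, was not called and its window is not shown. A match in the sequence is a description and not evidence of binding.

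Genes of fuel oxidation were also higher in BAT. In the citric acid cycle 21 of 22 tested genes were higher in BAT and 0 in iWAT (median 2.30). The succinyl-CoA ligase gene Sucla2 was at 35.5 and 31.1 FPKM in iWAT and 378 and 308 in BAT (log2 difference 3.34 ± 0.12 SE, adjusted p = 1.3e-05). Idh3b, a subunit of NAD-dependent isocitrate dehydrogenase, was at 65.8 and 59.4 FPKM in iWAT and 428 and 381 in BAT (log2 difference 2.68 ± 0.09 SE, adjusted p = 1.29e-05). In beta-oxidation 30 of 32 genes were higher in BAT and 1 in iWAT (median 2.09). Acaa2, the last enzyme of the mitochondrial spiral, was at 92.3 and 79.5 FPKM in iWAT and 1730 and 1484 in BAT (log2 difference 4.22 ± 0.12 SE, adjusted p = 7.62e-06). Carnitine palmitoyltransferase 1, which admits fatty acids to mitochondria, split by isoform. The muscle isoform Cpt1b was at 0.148 and 0.138 FPKM in iWAT and 8.52 and 6.98 in BAT (log2 difference 3.67 ± 0.13 SE, adjusted p = 1.3e-05). The liver isoform Cpt1a was at 10.2 and 13.9 FPKM in iWAT and 3.21 and 4.74 in BAT (log2 difference -1.50 ± 0.21 SE, adjusted p = 0.00117). Neither isoform had overlapping values between the tissues, as in every called gene. Biogenesis genes were higher in BAT in 13 of 19 cases (median 1.12), led by the cristae organizers Immt and Chchd3 (log2 differences 1.77 and 1.67) and the fusion genes Mfn2 and Mfn1 (log2 differences 1.21 and 1.32). Nrf1 was higher in iWAT (log2 difference -0.42), with a call that was lost in every fit with 1 library fewer (adjusted p between 0.0585 and 0.138 without each WT library in turn).

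The largest differences toward BAT after that of Ucp1 were in genes of fatty acid uptake. Of 25 tested genes of lipid uptake and lipolysis 14 were higher in BAT and 4 in iWAT (median 0.56). The fatty acid binding protein gene Fabp3, the heart and muscle member of its family, was 158-fold higher in BAT by the group means (1.09 and 5.82 FPKM in iWAT and 639 and 456 in BAT, log2 difference 7.41 ± 0.62 SE, adjusted p = 0.000151). Slc27a2, which takes up and activates very long-chain fatty acids, was 298-fold higher (0.186 and 0.421 FPKM in iWAT and 81.3 and 99.8 in BAT, log2 difference 6.83 ± 0.17 SE, adjusted p = 5.32e-06). Plin5, which ties lipid droplets to mitochondria, was at 7.37 and 4.81 FPKM in iWAT and 131 and 103 in BAT (log2 difference 4.17 ± 0.20 SE, adjusted p = 2.85e-05). The genes of the list that were higher in iWAT were Fabp5, Slc27a1, Plin4 and Cidec. Fabp5 was at 101 and 69.0 FPKM in iWAT and 30.7 and 41.3 in BAT, Slc27a1 was at 281 and 278 FPKM in iWAT and 116 and 169 in BAT and Plin4 was at 214 and 182 FPKM in iWAT and 113 and 109.7 in BAT. Cidec, the fusion factor of large droplets, differed by -0.65 on the log2 scale and lost its call in every fit with 1 library fewer (adjusted p between 0.0542 and 0.0753 without each WT library in turn). Members of the same 3 families therefore differed in opposite directions (Fabp3 and Fabp5, Slc27a2 and Slc27a1, Plin5 and Plin4). On the listed-read scale 8 genes of the list were higher in iWAT.

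Glycolysis and the handling of lactate and pyruvate were also biased toward BAT. Of 26 glycolysis genes 16 were higher in BAT and 1 in iWAT (median 1.32). Pdk4, which inactivates pyruvate dehydrogenase, was at 14.8 and 15.7 FPKM in iWAT and 480.1 and 376 in BAT (log2 difference 4.76 ± 0.13 SE, adjusted p = 7.62e-06). The lactate dehydrogenase subunit Ldhb was at 42.2 and 34.1 FPKM in iWAT and 483 and 453 in BAT (log2 difference 3.61 ± 0.12 SE, adjusted p = 1.11e-05). Ldha, a gene picked with its values known, was at 394 and 366 FPKM in iWAT and 577 and 628 in BAT (log2 difference 0.66). The monocarboxylate transporter gene Slc16a1 was at 5.87 and 5.40 FPKM in iWAT and 70.2 and 59.0 in BAT (log2 difference 3.40). Phosphoglycerate kinase, Pgk1, was at 84.1 and 85.0 FPKM in iWAT and 357 and 336 in BAT (log2 difference 2.03). Hexokinase 3, Hk3, a myeloid isoform, was higher in iWAT by 1.43 on the log2 scale. Gapdh, listed at 1.09 and 1.97 FPKM in iWAT and 2.62 and 7.42 in BAT, is not interpreted, because its many processed copies can divide the reads.

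Breakdown of branched-chain amino acids was higher in BAT in 21 of 26 genes and in iWAT in 1 (median 0.89). Dld, shared with the pyruvate dehydrogenase complex, differed by 1.96, the acetoacetyl-CoA thiolase Acat1 by 1.81, Pccb by 1.80 and Hibch by 1.23, and the amino acid transporter gene Slc7a5 was higher in iWAT (log2 difference -1.36). Synthesis of fatty acids did not separate the depots as oxidation did. In de novo lipogenesis 5 of 25 genes were higher in BAT and 4 in iWAT (median 0.28, which became -0.21 after quantile normalization, -0.18 on the listed-read scale and -0.13 without WT iWAT replicate 2). Acacb, the acetyl-CoA carboxylase of the mitochondrial surface, was at 57.0 and 34.6 FPKM in iWAT and 165 and 170.0 in BAT (log2 difference 1.90). Gpam and the glucose-sensing factor Mlxipl were higher in BAT by 1.45 and 1.44 on the log2 scale. The desaturase Fads1 (log2 difference -1.27), Elovl1 (log2 difference -0.91), Mogat1 (log2 difference -1.27) and Mogat2 (log2 difference -0.95) were higher in iWAT, Mogat2 not without some libraries (adjusted p = 0.0825 without WT iWAT replicate 2 and 0.0904 without WT BAT replicate 1). Fatty acid synthase, Fasn, picked with its values known, was at 2234 and 1247 FPKM in iWAT and 2200 and 2481 in BAT, so its values overlapped. The desaturase gene Scd1 was at 4833 and 2042 FPKM in iWAT and 5607 and 4873 in BAT and did not pass the test (log2 difference 0.73 ± 0.39 SE, adjusted p = 0.157). The difference of Scd1 was -0.21 after quantile normalization, and it was 1.36 and passed without WT iWAT replicate 1 (adjusted p = 0.0055). Without WT iWAT replicate 1, 13 lipogenic genes were higher in BAT, and without any other WT library 3 were. Of 24 sterol synthesis genes 3 were higher in BAT (Acat2, Fdft1 and Hmgcs1) and 2 in iWAT (Srebf2 and Ebp). Their median of -0.03 became 0.29 without WT iWAT replicate 1 and 0.18 with the muscle covariate, and without WT iWAT replicate 2, 7 genes were higher in iWAT. Of these calls those of Fdft1 (adjusted p = 0.0526 without WT BAT replicate 1) and Hmgcs1 (adjusted p = 0.103 without WT iWAT replicate 2, 0.171 without WT BAT replicate 1 and 0.0543 without WT BAT replicate 2) were lost without some libraries. So were those of Srebf2 (adjusted p = 0.0519 without WT iWAT replicate 1 and 0.0501 without WT BAT replicate 2) and Ebp (adjusted p = 0.0893 without WT iWAT replicate 1 and 0.0811 without WT BAT replicate 2).

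White and beige marker genes went the other way from the thermogenic list. All 15 tested white and beige markers of 18 listed were higher in iWAT, with a median of -2.32 (28.1% of all genes tested were higher in iWAT). Without a filter on low values, 16 of 17 were higher in iWAT. Leptin mRNA was 7.16-fold higher in iWAT (61.1 and 55.0 FPKM in iWAT and 7.52 and 8.70 in BAT, log2 difference -2.77 ± 0.44 SE, adjusted p = 0.00222). Nnat, an imprinted proteolipid gene, was 11.2-fold higher (112 and 143 FPKM in iWAT and 6.00 and 16.7 in BAT, log2 difference -3.59 ± 0.46 SE, adjusted p = 0.000838). The 4 genes of smallest p in this list were Hoxc9, Wfdc21, Hoxc8 and Cd40. The homeobox gene Hoxc9 was at 4.66 and 4.82 FPKM in iWAT and 0 and 0 in BAT, so no fold is given and its log2 difference of -3.39 depends on the added 0.5. Hoxc8 was at 8.65 and 8.77 FPKM in iWAT and 1.12 and 1.54 in BAT (log2 difference -2.34). Wfdc21 was at 6.79 and 6.86 FPKM in iWAT and 1.09 and 1.03 in BAT. Cd40, which is also known from B cells and macrophages, was at 2.87 and 3.48 FPKM in iWAT and 0.318 and 0.377 in BAT. Leukocyte markers had the same direction, and their part in this list was not tested. Hoxc8 and Hoxc9 are also counted among the Hox genes below.

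Of 18 adipokine genes 11 were higher in iWAT and 4 in BAT (median -0.83). Resistin-like alpha, Retnla, was at 733 and 775 FPKM in iWAT and 57.3 and 90.2 in BAT (log2 difference -3.38). The follistatin-like gene Fstl1 was at 50.1 and 50.8 FPKM in iWAT and 7.94 and 12.6 in BAT (log2 difference -2.28). Higher in BAT was Nampt, of NAD salvage, at 27.4 and 24.6 FPKM in iWAT and 82.5 and 66.8 in BAT (log2 difference 1.50). The others were the neuregulin gene Nrg4 (log2 difference 0.96), the lipoprotein lipase inhibitor Angptl4 (log2 difference 1.09) and Fam132a (log2 difference 0.32), which turned to -0.13 on the listed-read scale. Angptl4 lost its call without WT iWAT replicate 1 (adjusted p = 0.0531) and without WT BAT replicate 1 (0.0527), and Fam132a without WT iWAT replicate 2 (0.123) and without WT BAT replicate 1 (0.133). Genes common to both kinds of adipocytes showed no such bias. Of 20 tested, 6 were higher in BAT and 4 in iWAT (median 0.25, which became -0.19 after quantile normalization and -0.21 on the listed-read scale). The number higher in iWAT was 2 without WT iWAT replicate 1, without WT BAT replicate 1 or without WT BAT replicate 2, and 9 on the listed-read scale. The nuclear receptor gene Pparg was at 92.3 and 80.4 FPKM in iWAT and 148 and 144 in BAT (log2 difference 0.76 ± 0.12 SE, adjusted p = 0.00204). Glycerol-3-phosphate dehydrogenase, Gpd1, was at 689 and 518 FPKM in iWAT and 2826 and 2156 in BAT (log2 difference 2.05), and the glycerol channel gene Aqp7 at 23.3 and 22.0 FPKM in iWAT and 67.2 and 73.0 in BAT (log2 difference 1.61). These 3 genes were higher in both BAT libraries. Adiponectin, Adipoq, was lower in BAT (log2 difference -0.41 ± 0.12 SE, adjusted p = 0.0234), although not without some libraries (adjusted p = 0.0755 without WT iWAT replicate 1, 0.0982 without WT BAT replicate 1 and 0.0655 without WT BAT replicate 2). Adipsin, Cfd, was at 11280 and 9276 FPKM in iWAT and 2402 and 3336 in BAT, 3.58-fold higher in iWAT (log2 difference -1.85 ± 0.21 SE, adjusted p = 0.000547). Fabp4 and Plin1, chosen as adipocyte markers, did not pass the test. Fabp4 was at 1704 and 1464 FPKM in iWAT and 1745 and 1680 in BAT (adjusted p = 0.47), and Plin1 was at 548 and 444 FPKM in iWAT and 578 and 565 in BAT (adjusted p = 0.174).

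Hox genes, which pattern the body axis, split between the depots. Of 21 tested Hox genes 7 were higher in BAT and 10 in iWAT (median -0.41). Numbers within a Hox cluster run from the head end to the tail end of the body. All 5 tested genes numbered 2 to 4 were higher in BAT. Below the minimum, Hoxb2 and Hoxb3 were higher in both BAT libraries, and Hoxd3 was close to 0 throughout. Hoxd4, also below it, went the other way (0.593 and 0.521 FPKM in iWAT and 0.207 and 0.370 in BAT). Of 8 genes numbered 5 to 7, 2 were higher in BAT and 4 in iWAT. Of 8 genes numbered 8 to 10, 0 were higher in BAT and 6 in iWAT. Among these, Hoxa9, Hoxa10, Hoxb8, Hoxc9 and Hoxc10 passed the minimum only through iWAT, so the filter favored this direction for them. Hoxa4 passed it only through BAT. Hoxa5 was at 2.79 and 1.98 FPKM in iWAT and 14.8 and 15.0 in BAT (log2 difference 2.43 ± 0.17 SE, adjusted p = 8.9e-05). Hoxa4 was at 0.783 and 0.204 FPKM in iWAT and 5.87 and 6.16 in BAT (log2 difference 2.78). At the other end Hoxc10 was at 7.37 and 7.18 FPKM in iWAT and 0 and 0.0336 in BAT (log2 difference -3.91 ± 0.12 SE, adjusted p = 9.71e-06). Hoxa9 was at 3.14 and 2.83 FPKM in iWAT and 0.182 and 0.23 in BAT (log2 difference -2.30). Hoxa10 was at 2.11 and 2.09 FPKM in iWAT and 0 and 0 in BAT, so it was listed at 0 in both BAT libraries. The spans of 9 of the 21 genes overlap another Hox gene, and the sources used here do not say whether reads were counted by strand. Among the 12 without overlap 3 were higher in BAT and 6 in iWAT. On the listed-read scale 4 Hox genes were higher in BAT and 12 in iWAT. Without a filter on low values, 6 of 31 were higher in BAT and 11 in iWAT, with a median of -0.05.

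**Figure D4:**
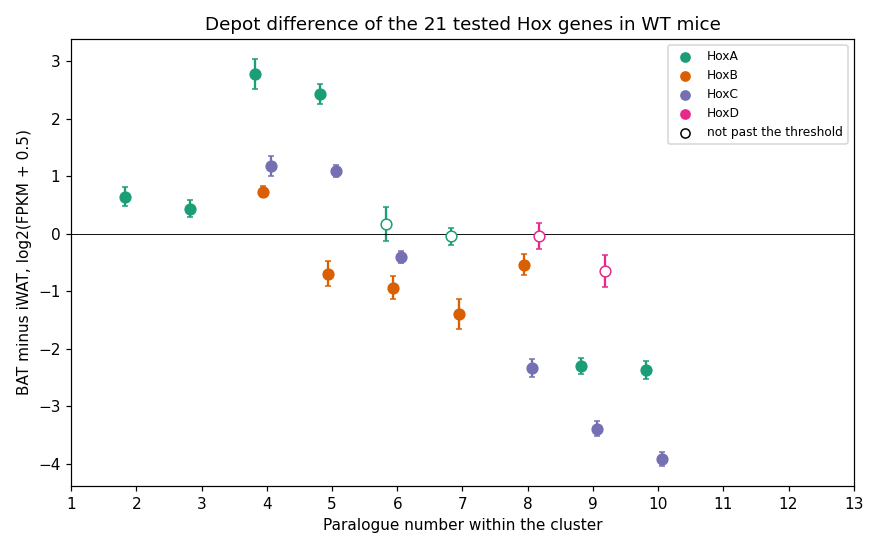
Each point is the BAT minus iWAT difference of a tested Hox gene on the log2(FPKM + 0.5) scale against its paralogue number, with bars of 1 SE. Genes numbered 2 to 4 lie above 0 and the called genes numbered 8 to 10 lie below it.

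Other patterning factors showed both directions, with 3 of 23 higher in BAT and 8 in iWAT (median -0.13, which became 0.20 after quantile normalization). Zic1, used as a marker of classical brown fat, was at 0.0351 and 0.0327 FPKM in iWAT and 1.58 and 1.66 in BAT (log2 difference 1.99 ± 0.16 SE, adjusted p = 0.000143). Irx3 and Tbx5 were the other 2 genes higher in BAT (log2 differences 0.88 and 0.59). Irx3 lost its call without some libraries (adjusted p = 0.0534 without WT iWAT replicate 1 and 0.0535 without WT BAT replicate 2). Tbx5 did as well (adjusted p = 0.0582 without WT iWAT replicate 1, 0.0962 without WT iWAT replicate 2 and 0.127 without WT BAT replicate 1). Shox2 was at 3.29 and 3.29 FPKM in iWAT and 0.614 and 0.581 in BAT and higher in iWAT (log2 difference -1.79 ± 0.12 SE, adjusted p = 6.14e-05), as was Twist1 (log2 difference -0.95). Tbx15 was at 4.24 and 6.04 FPKM in iWAT and 2.93 and 3.46 in BAT and did not pass the test (log2 difference -0.60 ± 0.27 SE, adjusted p = 0.106). Lhx8, another brown marker, was at 1.37 and 1.11 FPKM in iWAT and 0.947 and 2.03 in BAT, with iWAT values between the BAT values, and did not pass (log2 difference 0.14 ± 0.27 SE, adjusted p = 0.684). The sign of Lhx8 changed on the listed-read scale (-0.19), without mitochondrially encoded genes (-0.03) and without WT BAT replicate 2 (-0.26). Tcf21 and Wt1, picked with their values known, were listed at 0 in all 4 libraries.

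Stromal genes were higher in iWAT. Of 21 tested adipocyte progenitor genes 15 were higher in iWAT and 2 in BAT (median -1.75). The surface marker Thy1 was at 46.3 and 52.4 FPKM in iWAT and 6.05 and 7.02 in BAT (log2 difference -2.83 ± 0.13 SE, adjusted p = 2.28e-05). Dpp4, of interstitial progenitors, was at 13.0 and 15.1 FPKM in iWAT and 0.901 and 1.31 in BAT (log2 difference -3.19). The stem cell antigen gene Ly6a and the matrix gene Efemp1 were also higher in iWAT (log2 differences -1.45 and -2.35). Ebf2 and tissue factor, F3, went the other way (log2 differences 0.82 and 1.21). Of 25 collagen and matrix genes 21 were higher in iWAT and 1 in BAT (median -1.43). Fibronectin, Fn1, was at 58.9 and 71.8 FPKM in iWAT and 6.23 and 9.55 in BAT (log2 difference -3.00 ± 0.27 SE, adjusted p = 0.000215). Decorin, Dcn, was at 476 and 495 FPKM in iWAT and 104 and 127 in BAT (log2 difference -2.07 ± 0.13 SE, adjusted p = 6.13e-05). The basement membrane collagen Col4a2 was the 1 gene higher in BAT (log2 difference 0.51). Its call was lost without WT iWAT replicate 2 and without WT BAT replicate 2. It was also lost without mitochondrially encoded genes and on the listed-read scale.

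Vessels and nerves gave mixed lists. Of 20 endothelial and Vegf genes 9 were higher in BAT and 3 in iWAT (median 0.45, which was 0.00 on the listed-read scale with 7 higher in iWAT). Vegfa was at 53.3 and 44.9 FPKM in iWAT and 139 and 116 in BAT (log2 difference 1.37 ± 0.13 SE, adjusted p = 0.000242). Its receptor gene Flt1 and the endothelial kinase gene Tie1 were also higher in BAT (log2 differences 1.44 and 1.44). Plvap, of fenestrated endothelium, was at 26.8 and 27.4 FPKM in iWAT and 5.18 and 7.67 in BAT (log2 difference -2.02 ± 0.16 SE, adjusted p = 0.00014). Vwf and Angpt1 were also higher in iWAT (log2 differences -0.75 and -0.53), although Angpt1 lost the call without any 1 of the WT libraries (adjusted p between 0.0543 and 0.173 without each WT library in turn). In H1.2AKO mice the difference of Angpt1 was 0.15. Of 11 tested nerve and Schwann cell genes 6 were higher in iWAT and 2 in BAT (median -0.54). S100b, a Schwann cell marker that brown adipocytes also make, was at 2.08 and 2.29 FPKM in iWAT and 28.5 and 24.9 in BAT (log2 difference 3.34 ± 0.15 SE, adjusted p = 2.26e-05). The myelin genes Pmp22 and Prx were higher in iWAT (log2 differences -1.30 and -1.21). The catecholamine synthesis genes Th and Dbh, chosen after their values were seen, were at or close to 0 FPKM in all 4 libraries.

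Immunoglobulin, B cell and T cell genes had the largest medians of all lists toward iWAT. Of 18 tested B cell genes 17 were higher in iWAT and 0 in BAT (median -4.30). Higher in iWAT were also all 18 tested T cell genes of 20 listed (median -3.33) and all 11 immunoglobulin constant genes (median -4.67). Without a filter on low values, 19 of 20 T cell genes were higher in iWAT, with a median of -3.09. Of 15 listed genes of lymph node stroma 8 passed the filter on low values, some of them only through iWAT. Without that filter 10 of 14 were higher in iWAT and 0 in BAT, with a median of -1.51. The B cell receptor subunit Cd79b was at 101 and 95.9 FPKM in iWAT and 0.474 and 0.538 in BAT (log2 difference -6.62 ± 0.13 SE, adjusted p = 4.77e-06). Its partner Cd79a was at 139 and 139 FPKM in iWAT and 1.02 and 0.484 in BAT (log2 difference -6.83 ± 0.19 SE, adjusted p = 7.62e-06). The T cell receptor constant gene Trbc1 was at 50.4 and 47.6 FPKM in iWAT and 1.36 and 1.63 in BAT (log2 difference -4.64 ± 0.10 SE, adjusted p = 4.77e-06). Immunoglobulin kappa, Igkc, was at 2094 and 2094 FPKM in iWAT and 101 and 66.3 in BAT. Glycam1, a ligand made by high endothelial venules of lymph nodes, was at 48.1 and 37.6 FPKM in iWAT and 0 and 0 in BAT, from 602 and 505 reads in iWAT and 0 in BAT. The B cell genes summed to 1416 and 1547 FPKM in iWAT and to 129 and 182 FPKM in BAT. The immunoglobulin genes summed to 2968 and 3046 FPKM in iWAT and to 141 and 104 FPKM in BAT, so both iWAT pools held these markers at similar levels. Their part in other genes that were higher in iWAT was not tested.

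Myeloid genes followed the same direction. Of 17 macrophage genes 16 were higher in iWAT and 0 in BAT (median -2.45). The scavenger receptor Cd163 was at 30.9 and 34.1 FPKM in iWAT and 3.32 and 4.28 in BAT (log2 difference -2.95 ± 0.16 SE, adjusted p = 3.98e-05). Timd4, of resident macrophages, was at 9.39 and 9.88 FPKM in iWAT and 0.281 and 0.59 in BAT (log2 difference -3.46 ± 0.21 SE, adjusted p = 5.29e-05). Of 12 neutrophil and monocyte genes, 8 were higher in iWAT and 0 in BAT without the filter (median -1.55), and Ly6c2 was higher in iWAT (log2 difference -3.37). Of 24 listed mammary and skin epithelium genes 10 passed the filter, some of them only through iWAT. Without the filter 16 of 23 were higher in iWAT and 0 in BAT, with a median of -0.70. The keratin gene Krt18 was at 7.34 and 5.15 FPKM in iWAT and 0 and 0.0458 in BAT, and Epcam was at 2.08 and 2.33 FPKM in iWAT and 0 and 0 in BAT. The epithelial genes summed to 61.0 and 50.2 FPKM in iWAT and to 7.95 and 9.33 FPKM in BAT. Of 5 erythrocyte genes 1 was higher in BAT (Hba-a1, log2 difference 0.50 ± 0.17 SE, adjusted p = 0.0471). Its call was lost in every fit with 1 library fewer (adjusted p between 0.0529 and 0.208 without each WT library in turn) and its difference was -0.06 after quantile normalization and -0.51 in H1.2AKO mice.

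**Figure D5:**
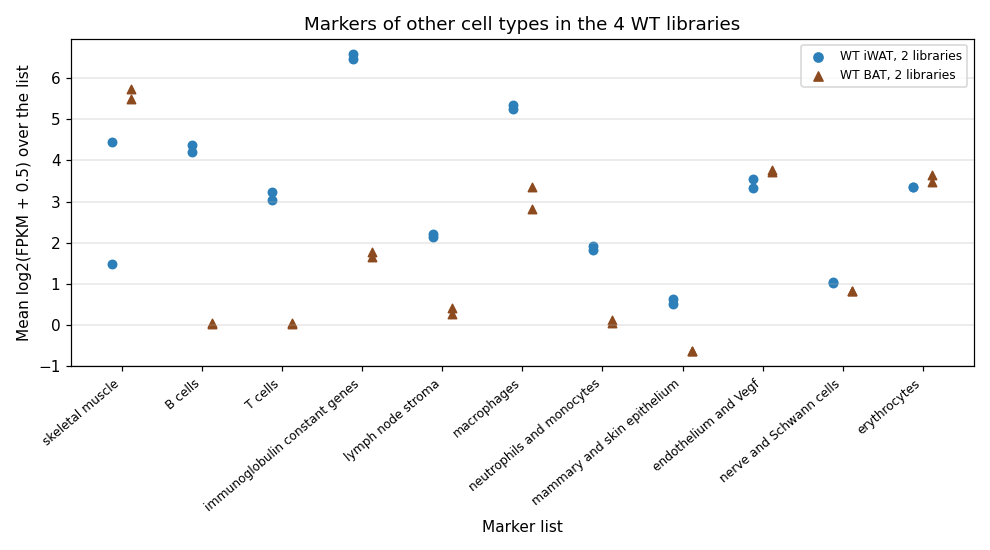
Points are the mean log2(FPKM + 0.5) over each marker list in the 2 WT iWAT and 2 WT BAT libraries. Lymphoid, myeloid and epithelial lists are higher in both iWAT libraries, and the skeletal muscle list is low in WT iWAT replicate 1 only (1.48, against 4.45 in replicate 2 and 5.48 and 5.75 in BAT).

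Skeletal muscle genes differed between the pools of iWAT. Of 35 tested genes 11 were higher in BAT and 0 in iWAT, with a median of 1.89 in WT mice and of -1.65 in H1.2AKO mice. The H1.2AKO BAT pools also differed, with a mean log2 level of the list of 1.44 in replicate 1 and 4.575 in replicate 2. In H1.2AKO iWAT it was 4.07 and 3.88. These pools enter the shared spread of every muscle gene tested here. Alpha-skeletal actin, Acta1, picked with its values known, was at 40.8 and 1159 FPKM in iWAT and 954 and 1049 in BAT, so 3 of the 4 libraries were at a similar level and iWAT replicate 1 was low. Without WT iWAT replicate 1, 7 genes were higher in BAT and the median was -0.01, and without WT iWAT replicate 2, 23 were higher in BAT and the median was 4.10. Slow and fast fiber genes were summed in 2 groups that were made after the values were seen, and the difference between the groups was not tested. A group of 6 slow-fiber genes summed to 1.29 and 1.01 FPKM in iWAT and to 106 and 171 FPKM in BAT and all 6 were higher in BAT. A group of 7 fast-fiber genes summed to 120 and 2479 FPKM in iWAT and to 1470 and 1705 FPKM in BAT and 0 passed the test (median 1.63). The slow myosin light chain Myl3 was at 0.497 and 0.285 FPKM in iWAT and 19.4 and 30.1 in BAT (log2 difference 4.80 ± 0.51 SE, adjusted p = 0.000383).

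Housekeeping groups differed as well. Of 49 cytosolic ribosome genes 44 were higher in iWAT and 0 in BAT (median -0.84), and their summed FPKM was 15310 and 14960 in iWAT and 8988 and 8351 in BAT. Rpl12 was at 105 and 105 FPKM in iWAT and 38.9 and 39.6 in BAT (log2 difference -1.40 ± 0.07 SE, adjusted p = 3.41e-05). The ribosomal genes have many processed copies, so their single levels are uncertain. Of 32 proteasome genes 19 were higher in BAT (median 0.34). Nfe2l1, which drives proteasome genes in brown fat of mice, was at 66.4 and 58.8 FPKM in iWAT and 130.1 and 131 in BAT (log2 difference 1.06 ± 0.08 SE, adjusted p = 0.000116). On the listed-read scale 2 proteasome genes were higher in BAT and 11 in iWAT, with a median of -0.12, and without WT iWAT replicate 2, 11 were higher in BAT. Of 18 clock genes 9 were higher in BAT and 1 in iWAT (median 0.44), with the repressor Cry1 (log2 difference 1.23) and Nfil3 (log2 difference 1.62) higher in BAT and Rora higher in iWAT (log2 difference -0.80). On the listed-read scale 3 were higher in BAT and 4 in iWAT. Time of collection is not given in the sources used here. Among 20 immediate early and heat shock genes 3 were higher in BAT and 1 in iWAT (median 0.59). The small heat shock gene Hspb1 was at 48.0 and 62.9 FPKM in iWAT and 289 and 274 in BAT (log2 difference 2.35 ± 0.19 SE, adjusted p = 0.000139). Without WT iWAT replicate 1 or without WT BAT replicate 1 the list held 1 gene higher in BAT, and without WT BAT replicate 2 it held 5. The gene higher in iWAT was Jund (log2 difference -0.45, adjusted p = 0.0478), whose call was lost in the 4 WT libraries alone (adjusted p = 0.106), without WT iWAT replicate 1 (0.215) and without WT BAT replicate 2 (0.22).

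The interleukin-10 receptor gene Il10ra, which the study followed in iWAT, was 10.1-fold higher in iWAT (11.9 and 10.9 FPKM in iWAT and 0.949 and 1.30 in BAT, log2 difference -2.88 ± 0.16 SE, adjusted p = 4.2e-05). It is best known from leukocytes, whose markers had the same direction, and their part in this value was not tested. In fractions of WT iWAT, the paper reported higher Il10ra mRNA and protein in mature adipocytes than in the remaining cells of the pad. Il10rb and the kinase gene Jak1 were also higher in iWAT (log2 differences -0.43 and -0.73), with Il10rb at an adjusted p of 0.0569 without WT iWAT replicate 2. Stat3 (log2 difference 0.25, and -0.19 on the listed-read scale) did not pass the test. Il10 itself was below the minimum.

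Outside the gene lists the largest difference toward BAT was that of the kininogen gene Kng2, at 0.179 and 0.148 FPKM in iWAT and 45.5 and 39.4 in BAT (log2 difference 6.01). Guanosine monophosphate reductase, Gmpr, was at 2.29 and 5.69 FPKM in iWAT and 112 and 175 in BAT. The receptor gene Lgr6 was at 0.0801 and 0.0272 FPKM in iWAT and 20.2 and 13.1 in BAT (log2 difference 4.92). Every one of these BAT values was many times the iWAT values. The coenzyme Q kinase Adck3 was at 14.7 and 14.1 FPKM in iWAT and 398 and 285 in BAT (log2 difference 4.50), and the mitochondrial carrier Slc25a42 was at 3.94 and 2.96 FPKM in iWAT and 76.7 and 53.0 in BAT (log2 difference 4.04). The same rule also took the transfer RNA genes mt-Te and mt-Tm (for mt-Tm, adjusted p = 0.0534 without WT BAT replicate 2), a pseudogene (Gm9899) and an unnamed transcript. It took Csrp3, a muscle LIM protein gene, at 0.103 and 2.20 FPKM in iWAT and 18.8 and 26.2 in BAT, whose call was lost without some libraries (adjusted p = 0.127 without WT iWAT replicate 1, 0.0774 without WT BAT replicate 1 and 0.097 without WT BAT replicate 2). Toward iWAT the rule took Ly6d, at 77.8 and 76.5 FPKM in iWAT and 0.546 and 0.431 in BAT (log2 difference -6.30). Lymphotoxin beta, Ltb, was at 75.4 and 82.5 FPKM in iWAT and 0.983 and 1.56 in BAT (log2 difference -5.50), and the class II gene H2-DMb2 was at 29.3 and 30.1 FPKM in iWAT and 0.119 and 0.525 in BAT. The macrophage receptor gene Marco was at 30.6 and 25.4 FPKM in iWAT and 0 and 0 in BAT. In Marco both BAT libraries were listed at 0. As in every called gene, the tissues did not overlap in any of these genes. The other genes of this set were Mir142hg, Mir5107 and the immunoglobulin joining segments Igkj2, Igkj3 and Igkj4. It also took an unnamed transcript at 68.7 and 86.5 FPKM in WT iWAT and 0 in WT BAT, which differed between the H1.2AKO iWAT pools (71.8 and 0.877 FPKM). 

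By abundance, the 10 highest genes of BAT were mitochondrially encoded but for Scd1, which took 1.07% of the FPKM total, and mt-Co1 alone took 10.3%. In iWAT mt-Co1 took 4.24% and was followed by Cfd with 3.21%. Gelsolin, Gsn, was at 3040 and 2863 FPKM in iWAT and 682 and 962 in BAT, and carbonic anhydrase 3, Car3, was at 2779 and 2851 FPKM in iWAT and 1746 and 1576 in BAT. Both were among the 10 highest of iWAT with Scd1, Igkc, mt-Cytb, mt-Nd1, mt-Nd2 and mt-Nd4.

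The depot differences of WT mice were read beside those of the H1.2AKO libraries, which the WT contrast does not use. Of the 3571 genes higher in BAT 3521 had the same sign in H1.2AKO mice and 3052 (85.5%) were called there, and of the 3965 higher in iWAT 3915 had the same sign and 3367 (84.9%) were called. Ucp1 differed by 9.68 in H1.2AKO mice, Il10ra by -2.49 and Hoxc10 by -4.10 on the log2 scale. The test of whether a depot difference itself differed between genotypes called 0 of 14094 genes in limma (0%, smallest adjusted p = 0.166). An unadjusted p under 0.05 was found for 776 genes, and limma-voom on reads called 0. The count was 3 with a pseudocount of 0.1, 3 without WT iWAT replicate 2 and 2 without H1.2AKO iWAT replicate 1. The genes with the smallest p in that test were Mirlet7i, Mir1932, the tight junction gene Cldn1, Iglv1 and Gm11808. Cldn1 was at 0.646 and 0.616 FPKM in iWAT and 4.59 and 5.61 in BAT, a depot difference of 2.30 in WT mice and of 0.49 in H1.2AKO mice (adjusted p of the difference 0.266).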

How the data were processed

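Messenger RNA of both fat depots was selected with poly-T and sequenced in 2 libraries per tissue and genotype. The authors deposited 1 table of FPKM values, together with the length and position of every gene. HISAT2 2.0.5 and the builds GRCm38.p6 and mm10 are named in the submitters' processing notes. How reads were counted, on which annotation, and what served as the FPKM denominator is not given in the sources used here. For 100% of the values above 0, the FPKM, the gene length and 1 denominator per library gave whole reads within 0.01, which set the depth at 16118634 to 17480325 reads over the listed genes in the 8 libraries.

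FPKM values were analyzed as log2(FPKM + 0.5) in R 4.3.3 with limma 3.58.1. A fold on this scale understates the change of genes with low values. The model held 1 mean for each combination of tissue and genotype, used all 8 libraries and moderated the spread with a trend (degrees of freedom, 4 residual and 2.6 prior), and WT BAT was compared with WT iWAT in genes whose mean reached 0.5 FPKM over the 4 WT libraries. P-values were two-sided and adjusted by Benjamini-Hochberg over all 14094 genes, and the threshold was 0.05. The fit was tested on simulated data. Folds by group means are ratios of mean FPKM. Gene lists were described by counts of calls and the median difference, without a set test.

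Genes named are Hist1h1c, a list of anchor genes (such as Ucp1, Lep and Il10ra), in each described list the 4 genes of smallest p and those called against its median, the 10 largest differences per direction outside the lists with at least 10 FPKM in the higher tissue, the 10 most abundant genes per tissue and the 5 of smallest p for the genotype difference. Other genes were chosen after their values were seen. The members, the gene lists and the rule were chosen with earlier results of these data known. Symbols that had become dates (27 genes) were restored, 28 symbols in all being taken from GENCODE by identifier. Alternatives covered the pseudocount, filters, scaling, moderation, samples, a replicate block, voom on reads, thresholds and leaving out libraries. The listed-read scale and the muscle covariate were added after the data were seen.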

Additional observations from a re-analysis of the deposited data

How the results depend on the processing

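Direction and call held under all alternatives run for 196 of the 246 named genes besides Hist1h1c, and 33 of 42 gene lists kept the sign of their median. Using reads over the listed genes as the denominator moved the counts to 1711 genes higher in BAT and 6873 higher in iWAT, and requiring at least 1 log2 unit left 1306 and 2102. An adjusted p under 0.01 left 2436 and 2849. Without 1 WT library the counts lay between 2632 and 3029 for BAT and between 3171 and 3475 for iWAT, in both cases lowest without WT BAT replicate 1. Genes whose depot difference differed by genotype numbered 3 with a pseudocount of 0.1 and 0 to 3 without 1 library (3 without WT iWAT replicate 2 and 2 without H1.2AKO iWAT replicate 1). The causes of these changes were not tested.

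For Hist1h1c the log2 difference was 0.73 and passed in the 4 WT libraries alone (adjusted p = 0.00879). It was 0.74 and passed in limma-voom on recovered reads (adjusted p = 0.0143), and it was 0.61 to 0.84 without 1 library. With a covariate for the skeletal muscle level, fitted over the WT and H1.2AKO libraries, it was -0.13, and the cause was not tested. The sign changed without mitochondrially encoded genes for Lhx8 (-0.0307) and Hbb-bt (-0.0529). After quantile normalization it changed for Hist1h1e (0.0880), Hba-a1 (-0.0571), Hbb-bs (-0.334), Hbb-bt (-0.0163) and Scd1 (-0.206), and mt-Co1 was 0 by construction. On the listed-read scale it changed for Lhx8 (-0.192), Ckb (-0.105), Fam132a (-0.132), Hbb-bs (-0.144), Hbb-bt (-0.266) and Stat3 (-0.192), and with the muscle covariate for Hbb-bt (-0.0656). Without 1 library Hist1h1e ranged from -0.747 to 0.349 and Lhx8 from -0.263 to 0.543.

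The sources give the tissues the same replicate numbers without saying what a number marks. Deviations of same-numbered WT libraries correlated with r = 0.129 over genes, with 2 pairs. A replicate block gave 3573 genes higher in BAT, 3915 higher in iWAT and 0 that differed by genotype, and Hist1h1c at 0.73 (adjusted p = 0.269). Under the block Tbx15 passed (adjusted p = 0.0263) and Angpt1 (0.0567) and Jund (0.0565) did not, and no other call of a named gene changed.

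With 2 pools per tissue, a mean in a fit without 1 library rests on a lone pool assumed to vary like the other groups. Low genes rest on few reads, such as 18 in WT iWAT replicate 1 for Ucp1. Pool size, collection time and whether both depots came from the same mice are not settled by the sources, so these cannot be told apart from the depot.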

Other observations

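Families that the gene lists did not cover were described after the values had been seen, by counts and values without a test of the family. Of 38 tested mitochondrial solute carriers (Slc25) 23 were higher in BAT and 6 in iWAT, with a median log2 difference of 0.72 and a range of -2.17 to 4.04. The NAD carrier Slc25a51 was at 26.5 and 22.8 FPKM in iWAT and 112 and 111 in BAT (log2 difference 2.16) and the carnitine carrier Slc25a20 was higher in BAT by 2.95, whereas the dicarboxylate carrier Slc25a10 was at 189 and 116 FPKM in iWAT and 25.8 and 41.3 in BAT (log2 difference -2.17). Of 9 acyl-CoA thioesterases, which release free fatty acids from coenzyme A, 8 were higher in BAT and 0 in iWAT (median 1.07). Acot11 was at 1.60 and 0.66 FPKM in iWAT and 30.8 and 33.3 in BAT (log2 difference 4.38 ± 0.28 SE, adjusted p = 5.85e-05), and the mitochondrial Acot2 was at 5.48 and 4.21 FPKM in iWAT and 23.1 and 22.3 in BAT (log2 difference 2.13). Carbonic anhydrases went both ways, with 6 of 10 higher in BAT and 3 in iWAT, and Car2 was higher in BAT by 2.20 while Car3 and the mitochondrial Car5b were higher in iWAT (log2 differences -0.76 and -1.25).

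All 15 tested complement genes and all 5 tested lysyl oxidases were higher in iWAT (medians -2.33 and -1.13), against 28.1% of all genes tested. Some passed the minimum only through iWAT, such as C6 (2.63 and 3.61 FPKM in iWAT and 0.0672 and 0.127 in BAT). Loxl4 did as well (1.31 and 1.23 FPKM in iWAT and 0.354 and 0.274 in BAT). For such genes the filter favored this direction, and members below the minimum were not counted. The component C4b was at 199 and 205 FPKM in iWAT and 16.3 and 28.0 in BAT (log2 difference -3.21 ± 0.22 SE, adjusted p = 7.84e-05), C3 was at 494 and 463 FPKM in iWAT and 164 and 224 in BAT (log2 difference -1.32), and the collagen crosslinking gene Lox was at 9.73 and 8.48 FPKM in iWAT and 4.04 and 3.71 in BAT (log2 difference -1.13). All 11 tested MHC class II genes were higher in iWAT (median -2.85). Cd74 was at 972 and 1072 FPKM in iWAT and 118 and 170.2 in BAT. H2-Oa was listed at 0 in both BAT libraries and was at 17.4 and 15.6 FPKM in iWAT. The genes H2-Oa, H2-Ob, H2-Eb2 and H2-DMb2 passed the minimum only through iWAT, so the filter favored this direction for them. Of 14 CC chemokines 7 were higher in iWAT and 2 in BAT. Ccl8 was at 125 and 132 FPKM in iWAT and 3.85 and 2.89 in BAT (log2 difference -5.07 ± 0.17 SE, adjusted p = 1.21e-05), and Ccl2, which recruits monocytes, went the other way in WT mice at 3.64 and 3.31 FPKM in iWAT and 10.1 and 9.52 in BAT (log2 difference 1.38). In H1.2AKO mice the difference of Ccl2 was -1.21. Leukocyte markers were higher in both iWAT pools, and their part in these families was not tested.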
